A study of Mus musculus with 179 samples.

Results

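The comparison described here sets the prefrontal cortex (PFC) of male mice that had gone through early life stress and adult defeat against the PFC of male mice that had gone through neither. The members were taken from the labels alone: 6 libraries of ELS P10-20 with Defeat (called ELS defeat below) and 6 of Standard rearing with the Control adult condition (standard control), 12 of the 179 samples of the series. All were adult C57Bl6/j mice, 1 mouse per library, with tissue taken in the light cycle 24 hours after behavioural testing. ELS covered postnatal days 10 to 20, and the labels used here give neither its procedure nor the adult age. Both other male PFC groups, ELS without defeat (ELS control) and standard rearing with defeat (standard defeat), had 6 libraries each and entered the same fit. All 12 mice were tested behaviourally. The question is which genes differ in the cortex of mice that met both stresses, compared with mice that met neither.

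The PFC regulates stress responses through layered excitatory neurons, inhibitory interneurons and their glia. Immediate early genes are transcription factors and signalling regulators that neurons switch on shortly after firing. Glucocorticoids, the adrenal stress hormones, enter brain cells and act through the nuclear receptors encoded by Nr3c1 and Nr3c2 on target genes such as Sgk1 and Ddit4. Myelin, made by oligodendrocytes, continues to be laid down in the PFC through adolescence.

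The 24 male PFC libraries held 27.9 to 36.0 M recovered reads each. The Y-linked gene Ddx3y lay between 1705 and 2219 normalised reads in all 12 libraries. Xist, the X-inactivation RNA of female cells, was at 559.5 in standard control 1 and 243.4 in standard control 4, and at 60.2 or less in the other 10. Standard defeat 4 carried 1284 normalised reads of Xist and 3853 of the dopamine transporter Slc6a3. It enters ELS defeat against standard control only through the estimate of spread. It enters directly the defeat-alone values, the interaction and ELS defeat minus standard defeat. These 3 libraries were kept, and values of several lists without them are given for ELS defeat against standard control. Cortical markers were present: Slc17a7, the vesicular glutamate transporter of cortical excitatory neurons, lay between 49539 and 62750 in the 12 libraries. Choroid plexus genes were uneven: Ttr, which encodes transthyretin, lay between 8.85 and 417 and was highest in standard control 1, Clic6 reached 168 in ELS defeat, and the summed list lay between 188.5 and 417.7 in ELS defeat and between 152.6 and 660.8 in standard control. The choroid genes Folr1, Otx2 and Tmem72 were at 8.78 or less, while Aqp1 reached 28.3, Prlr 34.5 and Kl 118. The midbrain factors Foxa1, Foxa2 and Lmx1a were at 3.06 or less. Others were higher: Pitx3 reached 5.1, En1 9.18 and Lmx1b 17.6, and Lmx1b had reads in all 12 libraries. Standard control 5 carried 121.4 reads of Slc6a3. Standard control 4 and ELS defeat 5 were high for the summed striatal projection neuron markers, at 27510 and 22410 normalised reads, where the other 10 libraries lay between 12480 and 16210.

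None of 14000 genes passed an adjusted p of 0.05 for ELS defeat against standard control in limma (0% called). The smallest adjusted p was 0.0902, for Ddit4. At an unadjusted p of 0.05, 1207 genes differed (8.62%, where chance gives 5%), 658 of them higher in ELS defeat (4.7%) and 549 lower (3.92%). Genes vary together across libraries, so the 5% is no test of an excess. Leaving out 1 library gave 5.84% (without standard control 3) to 11.7% (without ELS defeat 3). The median log2 fold change over all genes was 0.00 (-0.00125). All 6 ELS defeat libraries lay above all 6 standard controls for 41 genes (0.293%) and below them for 43 genes (0.307%). By edgeR's quasi-likelihood test on the recovered reads 0 genes passed and 1268 had an unadjusted p under 0.05, while DESeq2 called 16, 5 higher and 11 lower. Because no gene passed the main test, the genes described are those of smallest p, with their values. The mice of a group are separate animals, so each limma p is set against the spread between mice within groups, all from 1 cohort. That spread was estimated over all 24 male PFC libraries, so it also rests on the 2 groups outside the comparison.

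Ddit4 and Sgk1 stood first among the lower genes. Ddit4 encodes an inhibitor of the growth kinase complex mTORC1 and is induced by glucocorticoids and energy stress. It was at 620, 734 and 807 normalised reads (lowest, median and highest) in ELS defeat and at 927, 956 and 1040 in standard control. Every ELS defeat library was below every control. The log2 fold change was -0.41 ± 0.07 (SE, n = 6 per group, limma, unadjusted p = 6.44e-06, adjusted p = 0.0902). Sgk1, the serum and glucocorticoid regulated kinase, was at 1248, 1332 and 1391 in ELS defeat and at 1435, 1657 and 1800 in standard control, again with no overlap. Its log2 fold change was -0.30 ± 0.06 (limma, adjusted p = 0.124). In the DESeq2 fit both passed, with an adjusted p of 0.000991 each. Over all alternatives the adjusted p ran from 0.000991 to 0.388 for Ddit4 and from 0.000991 to 0.428 for Sgk1, with 3 of 23 alternatives past the threshold for each gene.

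Other lower genes by the naming rule were Cyr61, Agxt2l1, Sox8, Enpp4 and Zfp454. Cyr61 (also Ccn1), a secreted matrix protein of the early growth response, showed the largest difference of the 15 genes named by p. It lay at 58.6, 76.4 and 91.1 in ELS defeat and at 133, 162 and 262 in standard control, a log2 fold change of -1.18 ± 0.26 (limma, adjusted p = 0.25). Agxt2l1 (also Etnppl), a phosphoethanolamine-degrading enzyme, was at 251, 318 and 420 against 426, 499 and 635, with a log2 fold change of -0.67 ± 0.15. For Cyr61, Agxt2l1 and Enpp4, an ectonucleotidase, the groups did not overlap. Sox8, a glial transcription factor, overlapped by the lowest control library, at 1086 in standard control 6 against a highest ELS defeat value of 1119, and the zinc finger gene Zfp454 overlapped marginally, at 157 against 156.

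The 8 higher genes had log2 fold changes of 0.24 to 0.68. Mfge8, a secreted protein that bridges dying cells or debris to phagocytes, was at 5579, 6097 and 6321 in ELS defeat and at 4772, 5111 and 5331 in standard control. That is 18.2% more, a log2 fold change of 0.24 ± 0.05 (limma, adjusted p = 0.25), with no overlap between the groups. Znrf3, a ubiquitin ligase that removes Wnt receptors, was at 677, 711 and 808 against 552, 604 and 651, and Mvd, a cholesterol synthesis enzyme, at 645, 699 and 782 against 536, 573 and 638. Neither overlapped, and their log2 fold changes were 0.25 ± 0.06 and 0.27 ± 0.06. Fcgrt, the neonatal Fc receptor, was at 401, 472 and 573 against 285, 371 and 394 (0.40 ± 0.10), and the transporter gene Abcc6 at 82.0, 91.7 and 99.7 against 58.2, 73.5 and 77.9 (0.34 ± 0.09), also without overlap. Pltp, a phospholipid transfer protein, Rnls, the flavoprotein renalase, and H2-Q4, a class I histocompatibility gene, overlapped with the controls and had log2 fold changes of 0.37, 0.46 and 0.68. Class I genes are close copies of one another, so the reads assigned to H2-Q4 are uncertain. The 16 genes that DESeq2 called included Mfge8, Znrf3, Mvd, H2-Q4 and Pltp among the higher genes, all 7 lower genes named above, and Dusp1, Btg2 and Trib1, of which Trib1 is named from that fit and not by the rule.

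**Figure D1:**
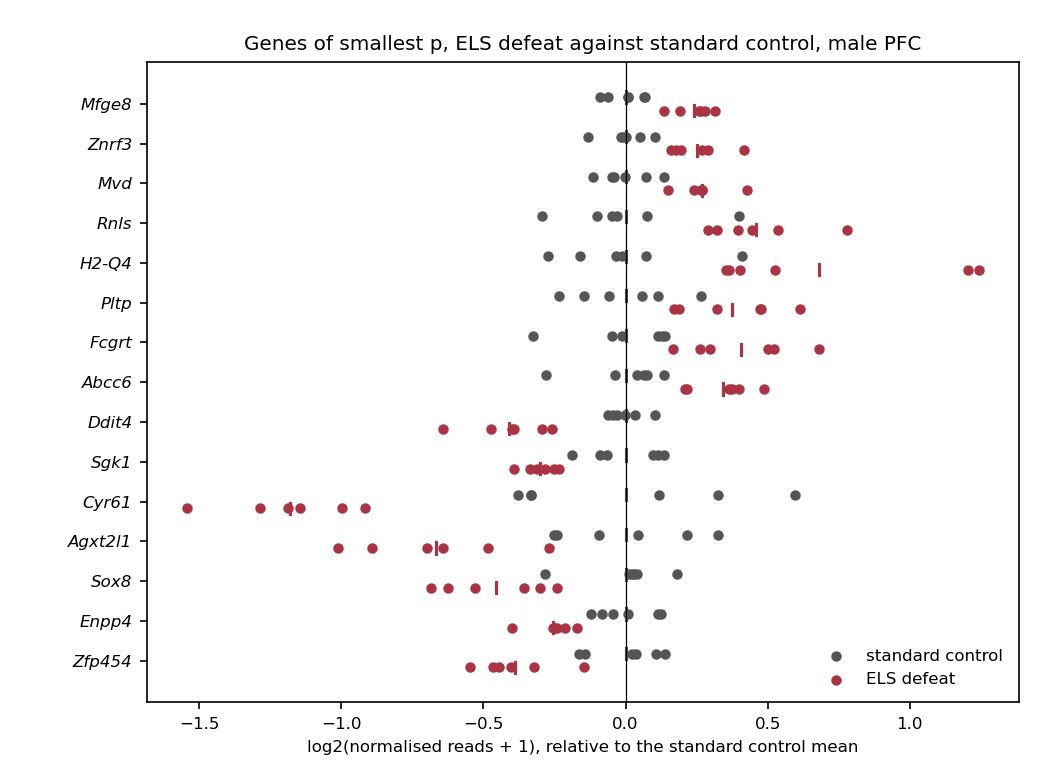
Level of the 15 genes named by p in each library, as log2(normalised reads + 1) relative to the mean of the 6 standard controls; grey points are standard control, red points ELS defeat, and short bars the group means. For 10 genes, Ddit4 and Mfge8 among them, the red and grey points do not overlap. The genes were chosen by p in this same comparison, which favours such separation. Of all 14000 genes, 0.293% lay wholly above and 0.307% wholly below the controls.

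Immediate early genes were lower as a group in ELS defeat. Of 20 listed genes 19 were tested (Maff was too low), and 18 of the 19 lay below 0, with a median log2 fold change of -0.59 beside -0.00125 for all genes. At an unadjusted p of 0.05, 14 were lower and 0 higher, against a background of 3.92% of genes lower; 0 passed the adjusted threshold in limma. Dusp1, a phosphatase that switches off MAP kinases, was the 1 member whose groups did not overlap. It was at 502, 680 and 766 in ELS defeat and at 921, 1435 and 1841 in standard control, a log2 fold change of -1.06 ± 0.24 (limma, adjusted p = 0.264). Btg2, an antiproliferative transcription cofactor, was at 272, 316 and 491 against 445, 733 and 889 (-1.05 ± 0.25), and only ELS defeat 2 reached into the control range. The nuclear receptor Nr4a2 was at 153, 223 and 310 against 246, 370 and 511 (-0.77 ± 0.22), and Ier2 at 144, 202 and 229 against 193, 332 and 440 (-0.74 ± 0.22).

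Among the best known members, Fos was at 339, 423 and 645 against 418, 996 and 1613 (-1.05 ± 0.34, limma unadjusted p = 0.00558). Arc, which encodes a synaptic protein with a viral capsid-like fold, was at 1172, 2049 and 3183 against 2702, 5477 and 11827, the largest difference of the list (-1.43 ± 0.45, limma unadjusted p = 0.00482). Standard control 4 was the highest library for both and standard control 5 the lowest control for both, so the control group was spread more widely than the ELS defeat group. Egr1 (-0.48 ± 0.20), Egr2 (-1.10 ± 0.42), Junb (-0.68 ± 0.23), Nr4a1 (-0.79 ± 0.24) and Sik1 (-0.59 ± 0.18) were lower at an unadjusted p of 0.05. Npas4, an activity-dependent factor of synapse regulation, was at 411, 514 and 789 against 376, 748 and 1360 (-0.41 ± 0.34, limma unadjusted p = 0.243), Egr3 was at -0.08 ± 0.15, and Klf4 at 0.04 ± 0.13 was the only member above 0. Summed over the 20 genes, the list lay between 20790 and 27550 normalised reads in ELS defeat and between 22840 and 54760 in standard control. Leaving out any 1 of the 12 libraries left 14 or 15 members lower at an unadjusted p of 0.05 and the median between -0.68 and -0.54; without the 3 doubted libraries 9 members were lower and the median was -0.52.

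**Figure D2:**
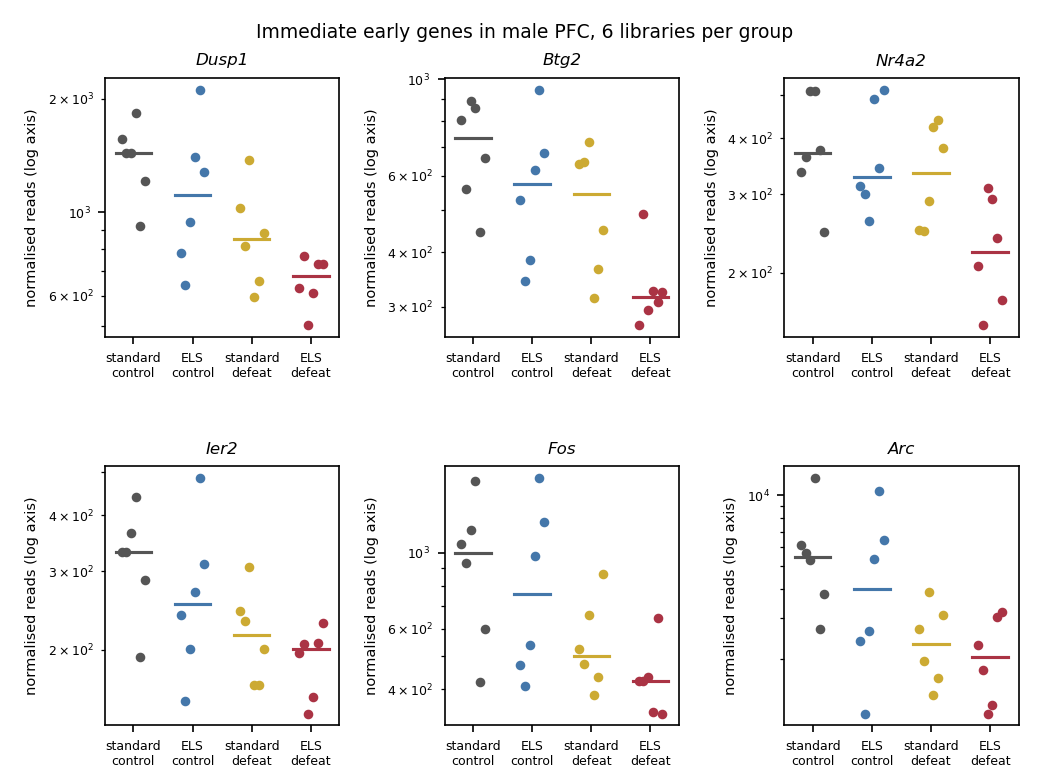
Normalised reads (log axis) of 6 immediate early genes in the 4 male PFC groups; each point is 1 library and each bar the group median. The red ELS defeat points of Dusp1, between 502 and 766, lie below all 6 standard controls, and standard defeat is low as well.

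The promoters of the 3 immediate early genes of smallest p that have a RefSeq promoter entry are shown, since the cyclic AMP response element, the letters TGACG or in full TGACGTCA, is the best known activity-dependent motif of this class. Each window runs from 250 to 51 bases before the RefSeq start in GRCm38.p6, 5′ to 3′ on the gene's strand, and capitals mark TGACG or its reverse complement, also where 2 matches overlap in the full motif. Dusp1 lies at chr17:26508523-26508722, Btg2 at chr1:134079206-134079405 and Nr4a2 at chr2:57124054-57124253, all on the minus strand.
Dusp1: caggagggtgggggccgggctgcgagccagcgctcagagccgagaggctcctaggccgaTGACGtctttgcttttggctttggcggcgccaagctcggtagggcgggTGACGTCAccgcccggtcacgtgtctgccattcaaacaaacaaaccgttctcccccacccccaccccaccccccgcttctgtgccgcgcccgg
Btg2: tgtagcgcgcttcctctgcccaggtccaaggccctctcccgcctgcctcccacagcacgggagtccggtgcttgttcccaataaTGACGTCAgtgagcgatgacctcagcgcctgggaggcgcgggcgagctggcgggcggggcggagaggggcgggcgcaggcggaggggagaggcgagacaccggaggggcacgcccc
Nr4a2: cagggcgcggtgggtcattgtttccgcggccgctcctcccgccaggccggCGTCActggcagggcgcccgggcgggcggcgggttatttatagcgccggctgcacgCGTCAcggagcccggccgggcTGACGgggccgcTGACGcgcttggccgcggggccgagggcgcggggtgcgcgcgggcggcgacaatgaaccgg
TGACG on either strand was present in the 250 bases before the start for 13 of the 15 immediate early genes with an entry. Over the same 250 bases it was in 17.8% of all 32851 promoter windows. The full motif, which contains TGACG, was in 3 of the 15 genes (Btg2, Dusp1 and Maff) and in 1.55% of all windows. Genes can have several windows, so by gene the share with TGACG over all 27025 genes was 19.8%. A match is a description of the letters.

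The other activity genes were closer to the background. Of 16 delayed activity-regulated genes, which respond hours after firing, 2 were lower at an unadjusted p of 0.05, against 3.92% of all genes. In the same list 0 were higher, and the median was -0.08. Gadd45b, a DNA demethylation cofactor, was at 163, 246 and 261 against 218, 296 and 378 (-0.38 ± 0.13), and the kinase Plk2 at 4814, 5506 and 6043 against 5282, 6150 and 6665 (-0.15 ± 0.07). Both pairs of groups overlapped. Without the 3 doubted libraries the median was 0.02 and 3 members were higher and 0 lower, so the direction of this list depended on them.

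Among 17 glucocorticoid-responsive genes 3 were lower at an unadjusted p of 0.05, against 3.92% of all genes, and 0 higher, with a median of -0.09. The 3 were Ddit4, Sgk1 and Errfi1, an inhibitor of the EGF receptor (681, 766 and 847 against 742, 868 and 921, -0.17 ± 0.06, limma adjusted p = 0.53). Fkbp5, the receptor co-chaperone most used as a readout of glucocorticoid action, was at 644, 778 and 915 in ELS defeat and at 583, 708 and 759 in standard control (0.15 ± 0.09, limma unadjusted p = 0.108). Tsc22d3 (-0.13 ± 0.12), Per1 (-0.12 ± 0.09), Klf9 (-0.05 ± 0.08) and Mt2 (0.14 ± 0.17) overlapped with the controls. The list held members on both sides of 0, with 7 above and 10 below. Without the 3 doubted libraries the median was -0.04, with 3 lower and 1 higher. The Sgk1 promoter is shown because it was 1 of only 3 windows of 32851 (0.00913%) with a palindromic glucocorticoid response element, searched as AGAACA and TGTTCT with any 3 bases between them; the pair reads the same on both strands. The window, 1 of 6 annotated for the gene, lies at chr10:21993640-21993839 on the plus strand, and capitals mark the element.
Sgk1: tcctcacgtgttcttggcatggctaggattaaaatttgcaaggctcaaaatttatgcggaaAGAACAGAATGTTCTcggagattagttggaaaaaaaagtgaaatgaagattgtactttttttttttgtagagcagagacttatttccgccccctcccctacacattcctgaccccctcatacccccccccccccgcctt
Of the 16 glucocorticoid-responsive genes with an entry, 1 held the element, and a window without these letters says nothing about the receptor.

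The hormone receptors differed little. Nr3c2, the mineralocorticoid receptor, was at 931, 998 and 1071 against 975, 1109 and 1170 (-0.14 ± 0.06, limma unadjusted p = 0.0273). It was the only 1 of 7 tested genes of the stress hormone and CRF list at an unadjusted p under 0.05, where 3.92% of all genes were lower. Nr3c1, the glucocorticoid receptor, was at 3246, 3476 and 3873 against 3485, 3763 and 4141 (-0.10 ± 0.06). Crhr1, the receptor for corticotropin-releasing factor, was at 891, 969 and 1128 against 766, 904 and 963 (0.15 ± 0.08). All 3 overlapped with the controls. Without the 3 doubted libraries Nr3c2 was at -0.12 (limma unadjusted p = 0.0847) and Crhr1 at 0.20 (limma unadjusted p = 0.0356), and the list had 1 member higher and 0 lower. Leaving out ELS defeat 1 or standard control 3 left 0 members at that level.

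Myelin genes were lower in ELS defeat, by an amount that rested on a few libraries. All 15 tested markers of mature oligodendrocytes lay below 0 (Trf was not tested), with a median log2 fold change of -0.61. At an unadjusted p of 0.05, 10 were lower, against 3.92% of all genes (0 passed the adjusted threshold in limma). Ugt8a, which makes the myelin lipid galactocerebroside, was at 456, 673 and 954 in ELS defeat and at 745, 915 and 1862 in standard control (-0.61 ± 0.24), Mal at 1207, 2063 and 2977 against 2139, 2707 and 6123 (-0.69 ± 0.28), and Opalin at 108, 190 and 276 against 192, 250 and 518 (-0.63 ± 0.26). Every one of these overlapped between the groups. The summed markers were 124600 and 141600 normalised reads in standard controls 3 and 5 and between 48830 and 73800 in the other 4 controls, beside 28690 to 72620 in ELS defeat. Without standard control 3 the median was -0.47, without standard control 5 it was -0.43 and without ELS defeat 2 it was -0.47, and in each case 0 markers had an unadjusted p under 0.05. Without the 3 doubted libraries it was -0.77 with 13 lower. In bulk RNA, fewer oligodendrocytes, less RNA per cell and a difference in the tissue taken cannot be told apart, for this and every other cell type list. Oligodendrocyte precursors had a median of -0.01, with Olig2, a lineage transcription factor, at -0.21 ± 0.10 as the 1 of 11 members lower at an unadjusted p of 0.05, against 3.92% of all genes.

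Deep-layer cortical markers were also lower, and most upper-layer markers lay slightly above 0. All 12 genes of layers 5 and 6 were below 0, with a median of -0.31 and 3 lower at an unadjusted p of 0.05, against 3.92% of all genes. Tle4, a corepressor of layer 6, was at 1534, 1909 and 2788 against 2260, 2437 and 3019 (-0.32 ± 0.14), Fezf2, which specifies subcortical projection neurons, at 1128, 1672 and 2175 against 1559, 2058 and 2418 (-0.29 ± 0.13), and Etv1 at 2529, 3086 and 3401 against 2817, 3574 and 3776 (-0.18 ± 0.08). The groups overlapped for each. Of 9 markers of layers 2 to 4, 8 were above 0 with a median of 0.13, led by Cux2, at 3329, 3774 and 4439 against 2741, 3264 and 3797 (0.19 ± 0.09), the 1 member higher at an unadjusted p of 0.05, against 4.7% of all genes. In 7 of the 12 fits that left out 1 library 0 upper-layer markers were at that level, and without the 3 doubted libraries 3 were higher with a median of 0.18. Leaving out ELS defeat 1 or ELS defeat 6 left 0 deep-layer markers at an unadjusted p under 0.05; without the 3 doubted libraries 7 were lower, with a median of -0.43. Standard control 3, high for myelin, had the highest deep-layer sum of the 12 libraries (24790) and the lowest upper-layer sum (17950). Standard control 5, also high for myelin, was at 20890 and 18820. ELS defeat 6, highest of its group for myelin, had the lowest deep-layer sum (12800). The part of the tissue taken was not tested. Genes shared by excitatory neurons had a median of 0.04, interneuron genes 0.00, and Camk2a, a kinase of excitatory synapses, was at 111650, 128210 and 139660 against 94542, 115240 and 124490 (0.17 ± 0.07).

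Striatal projection neuron markers, which mark tissue next to the cortex, had a median of -0.22, with 0 of 13 tested at an unadjusted p under 0.05. That value moved with 2 libraries that stood high: Pde10a, a striatal phosphodiesterase, was at 2289, 2439 and 4168 against 2413, 2810 and 6374, with ELS defeat 5 and standard control 4 at the top of their groups. Without the 3 doubted libraries the median was 0.04, and without ELS defeat 5 it was -0.36 with 7 lower. The dopamine receptor gene Drd1 was at 328, 475 and 912 against 532, 613 and 794 (-0.38 ± 0.22, limma unadjusted p = 0.101). Leaving out 1 library gave Drd1 values of -0.56 to -0.27. Without the 3 doubted libraries, standard control 4 among them, Drd1 was at -0.34. The part of the 2 striatal-high libraries in Drd1 was not tested beyond these values. Dopamine neuron markers had a median of -0.27, with Nr4a2, also an immediate early gene, the 1 of 7 tested members lower at an unadjusted p of 0.05, against 3.92% of all genes. Without the 3 doubted libraries 4 were lower and the median was -0.38.

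Microglial, vascular and astrocyte genes were higher by small amounts. Of 13 microglial markers 12 were above 0 with a median of 0.16, and 8 were higher at an unadjusted p of 0.05, against 4.7% of all genes. Csf1r, the growth factor receptor microglia depend on, was at 3175, 3522 and 4141 against 2981, 3162 and 3191 (0.18 ± 0.05, limma adjusted p = 0.438), with ELS defeat overlapping the controls only at its low end. P2ry12, a purinergic receptor of surveying microglia, was at 1055, 1134 and 1315 against 894, 1029 and 1085 (0.20 ± 0.06), and Siglech at 471, 533 and 638 against 445, 468 and 484 (0.22 ± 0.07). Aif1, which encodes the marker protein IBA1, was at -0.04 ± 0.10, and Tmem119 at 0.07 ± 0.08, so not every marker was higher. The count of higher markers ran from 4 to 9 when 1 library was left out, with 4 without standard control 3 and 5 without ELS defeat 6, and it was 5 without the 3 doubted libraries.

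All 13 endothelial markers and all 10 pericyte and vascular smooth muscle markers were above 0, with medians of 0.15 and 0.17. Of these, 5 and 2 were higher at an unadjusted p of 0.05, against 4.7% of all genes. Kdr, the main receptor for vascular endothelial growth factor, was at 527, 685 and 740 against 478, 522 and 660 (0.27 ± 0.09), its ligand Vegfa, from the neurotrophin list, at 2319, 2654 and 2980 against 2144, 2282 and 2548 (0.20 ± 0.06), and the pericyte receptor Notch3 at 652, 709 and 817 against 532, 598 and 670 (0.27 ± 0.08). The 3 genes overlapped between groups. All 13 astrocyte markers were above 0 with a median of 0.10, and 5 were higher at an unadjusted p of 0.05, against 4.7% of all genes. Aqp4, the water channel of astrocyte endfeet, led them, at 2278, 2947 and 3134 against 2208, 2413 and 2636 (0.20 ± 0.08). Gfap, raised in reactive astrocytes, was at 1766, 2320 and 2759 against 1767, 2082 and 2825 (0.08 ± 0.13). The astrocyte count rested on single libraries: it was 1 without ELS defeat 6 (median 0.06), 2 without ELS defeat 1 (0.06), 1 without standard control 3 (0.07) and 3 without standard control 1, 2 or 6, and it was 5 with a median of 0.15 without the 3 doubted libraries.

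Blood genes were higher beside these vascular lists. The 5 tested blood genes had a median of 1.36 and all 5 were higher at an unadjusted p of 0.05, against 4.7% of all genes. The beta-globin gene Hbb-b2 was at 123, 226 and 1689 in ELS defeat against 78.4, 120 and 138 in standard control (1.55 ± 0.54, limma adjusted p = 0.53), and Alas2, the haem synthesis enzyme of red cells, at 69.3, 99.9 and 710 against 54.1, 73.2 and 78.8. The summed blood genes were 20300 in ELS defeat 6 and 9222 in ELS defeat 1, between 1551 and 2645 in the other 4, and between 1099 and 1955 in standard control. Hbb and Hba pairs are near-identical, so their split is uncertain, and the sum is the better measure. Without ELS defeat 6 the median was 0.92 with 1 member at an unadjusted p under 0.05. Of the 12 libraries ELS defeat 6 was also the highest for the endothelial, pericyte, microglial and astrocyte sums. Without it 2 endothelial markers were higher at an unadjusted p of 0.05 with a median of 0.10, 1 pericyte marker with a median of 0.17 and 5 microglial markers with a median of 0.13. The endothelial count was 3 without ELS defeat 1, standard control 3 or standard control 5 and 8 without ELS defeat 4, and the pericyte count ran from 1 to 5. The part of blood in these lists was not tested beyond these values. Meningeal and fibroblast genes had a median of 0.42 with all 11 above 0 and 0 at an unadjusted p under 0.05, with summed levels of 9733 to 31700 against 7108 to 19750; Col1a1, the main collagen chain, was at 266, 434 and 518 against 140, 329 and 431 (0.62 ± 0.33).

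**Figure D3:**
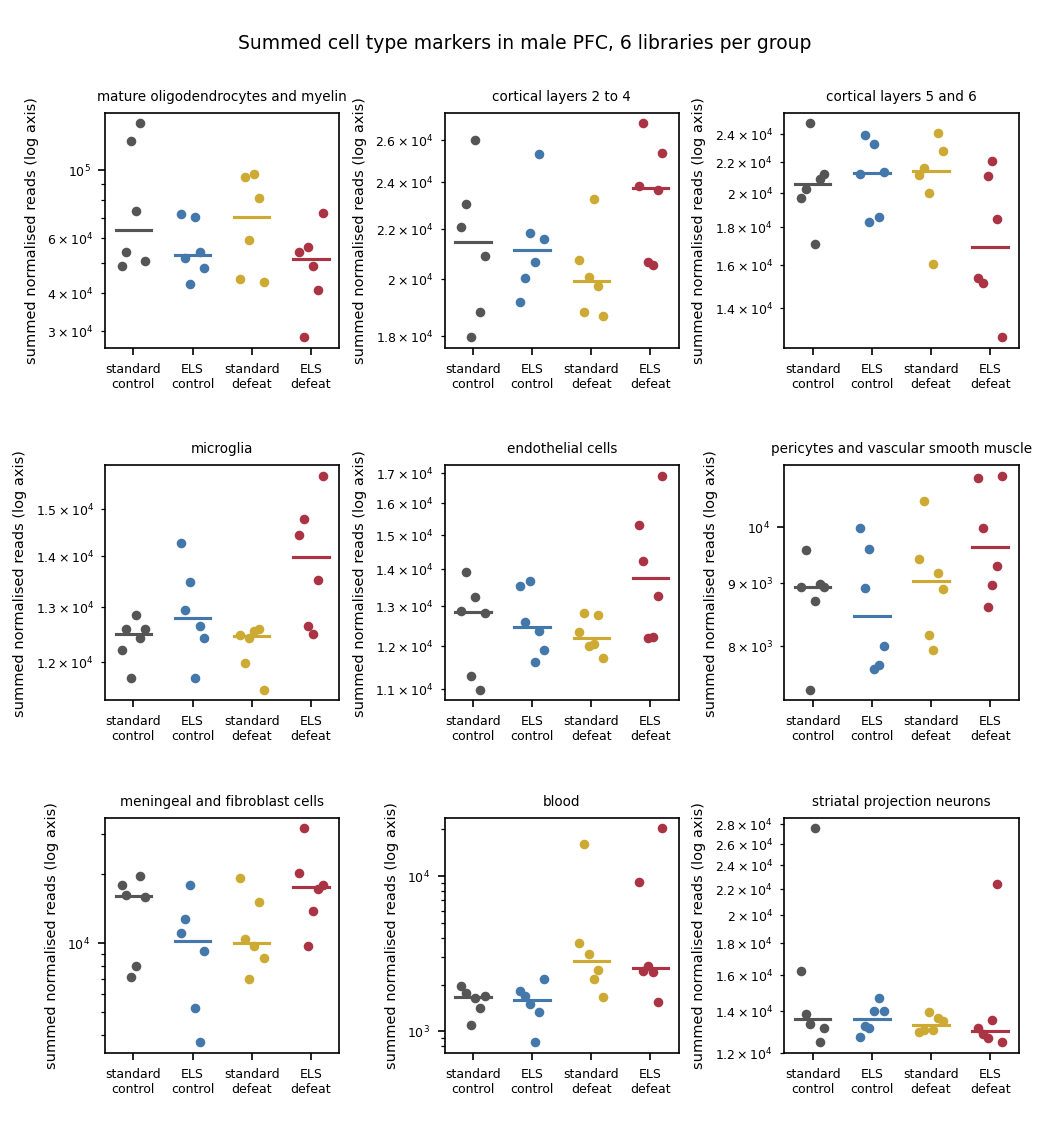
Summed normalised reads (log axis) of 9 cell type marker lists in the 4 male PFC groups, 1 point per library with group medians as bars. Standard controls 3 and 5 stand high for myelin (124600 and 141600), ELS defeat 6 and 1 for blood (20300 and 9222), and standard control 4 and ELS defeat 5 for striatal genes.

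Protein folding genes lay slightly below 0. All 16 endoplasmic reticulum chaperone genes were below 0, with a median of -0.06 and 2 lower at an unadjusted p of 0.05, against 3.92% of all genes. Without the 3 doubted libraries 0 were lower at that level and the median was -0.01. Xbp1, the transcription factor of the unfolded protein response, was at 2044, 2267 and 2528 against 2284, 2645 and 2735 (-0.16 ± 0.06), and Hspa5, the chaperone BiP, at 5424, 6024 and 7615 against 6410, 7057 and 9020 (-0.22 ± 0.12). Of 16 cytosolic heat shock genes 15 were below 0 with a median of -0.05, and 0 had an unadjusted p under 0.05.

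The perineuronal net, the matrix around inhibitory neurons, had a median of 0.13 over 10 genes, 7 above 0 and 3 below (-0.39 to 0.20). At an unadjusted p of 0.05, 2 were higher, against 4.7% of all genes. Leaving out 1 library gave 1 to 4 members at that level and a median of 0.09 to 0.17. Ncan, the proteoglycan neurocan, was at 10639, 10883 and 11341 against 9624, 10176 and 10450, with no overlap (0.11 ± 0.04, limma adjusted p = 0.478), and Bcan, brevican, at 6416, 6731 and 8236 against 5533, 6130 and 7321 (0.17 ± 0.08). The largest difference among 17 glutamate receptor genes was for Grin2c, an NMDA receptor subunit, at 1437, 1552 and 1975 against 1177, 1383 and 1495 (0.24 ± 0.08). Their median was 0.00, that of the 12 GABA-A subunits -0.03 and that of the 17 serotonin, noradrenaline and dopamine receptors -0.04, with Htr2a at 0.24 ± 0.13. Of the monoamine receptors 0 were at an unadjusted p under 0.05; without the 3 doubted libraries 3 were higher and 1 lower, Htr2a (0.33) among the higher, with a median of 0.01.

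The remaining process lists had medians close to that of all genes in the full set of libraries. The medians were 0.02 for both oxidative phosphorylation and cytosolic ribosomal proteins, with 0 of 20 members each at an unadjusted p under 0.05. Histone H3K4 methylation enzymes had a median of -0.03. The demethylase Kdm5a was the 1 of 16 tested lower at an unadjusted p of 0.05 (-0.14 ± 0.06), against 3.92% of all genes. Interferon genes had a median of 0.03. Isg15 was the 1 of 11 tested higher at that level (0.35 ± 0.14), against 4.7% of all genes. NF-kappa-B and inflammation genes had a median of 0.06, and 6 of 15 listed genes, Il1b, Tnf and Il6 among them, were too low to test. Without the 3 doubted libraries the interferon median was 0.14 with 1 member higher, Isg15 at 0.44, and the NF-kappa-B median was 0.11 with 2 members higher. Of 16 clock genes 3 were higher at an unadjusted p of 0.05, against 4.7% of all genes, while the list had a median of -0.02. They were Bhlhe41 (0.19 ± 0.08), Dbp (0.24 ± 0.11) and Nr1d1 (0.15 ± 0.07). Without the 3 doubted libraries 0 were higher at that level.

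**Figure D4:**
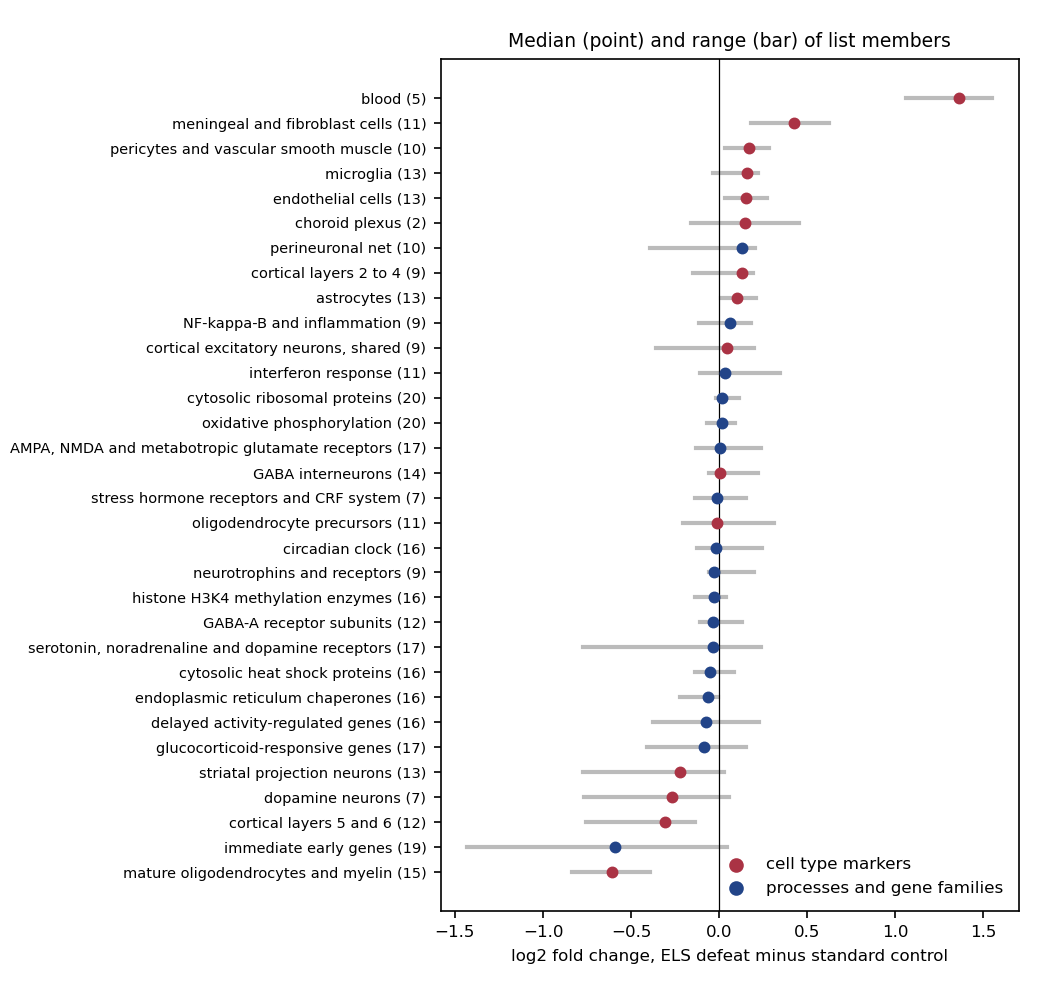
Median log2 fold change (point) and range of members (bar) of the 32 gene lists for ELS defeat minus standard control, with the number of tested members in parentheses and a line at the median of all genes. Blood (1.36) lies farthest right, and myelin (-0.61) and immediate early genes (-0.59) farthest left.

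The same 6 standard controls served for each single stress, so values against them are set side by side without a test of likeness. Ddit4 was at -0.26 ± 0.07 after ELS alone, -0.16 ± 0.07 after defeat alone and -0.41 ± 0.07 after both. Sgk1 was at -0.21 ± 0.06, -0.11 ± 0.06 and -0.30 ± 0.06 in the same order. Cyr61 was at -0.49 ± 0.26, -0.73 ± 0.26 and -1.18 ± 0.26. These genes were named by their p after both stresses, so that choice favours a larger value there than after 1 stress. The interaction term, the departure from additive effects on the log2 scale, was 0.00 ± 0.10 for Ddit4, 0.02 ± 0.08 for Sgk1 and 0.05 ± 0.37 for Cyr61. Over all genes the interaction passed the adjusted threshold for 0 of 14000 genes in limma (smallest adjusted p 0.824), and 832 genes (5.94%) had an unadjusted p under 0.05. Without the 3 doubted libraries 0 genes passed and 881 (6.29%) had an unadjusted p under 0.05.

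Fcgrt, Pltp and Abcc6 had the largest interaction estimates among the 15 genes named by p, apart from H2-Q4. Fcgrt was at -0.02 after ELS alone, 0.05 after defeat alone and 0.40 after both (interaction 0.37 ± 0.15, limma unadjusted p = 0.017). Pltp was at -0.03, 0.07 and 0.37 (interaction 0.34 ± 0.13, limma unadjusted p = 0.014), and Abcc6 at 0.14, -0.10 and 0.34 (interaction 0.30 ± 0.12, limma unadjusted p = 0.023). None of these passed the adjusted threshold in limma. Among list members, Myd88, the adaptor of Toll-like receptors, was at -0.19, -0.03 and 0.18 (interaction 0.39 ± 0.10, limma unadjusted p = 0.00042), with 132, 140 and 169 reads in ELS defeat against 115, 129 and 136 in standard control. Myd88 did not pass the adjusted threshold in limma either, and it is 1 gene picked out of the members of all 32 lists. The list medians after ELS alone, defeat alone and both were -0.09, -0.45 and -0.59 for immediate early genes, -0.45, -0.15 and -0.61 for myelin, 0.03, 0.05 and -0.31 for layers 5 and 6, and -0.08, 1.12 and 1.36 for blood. Of the immediate early genes, 10 of 19 were lower at an unadjusted p of 0.05 after defeat alone, where 1.81% of all genes were lower (3.35% in either direction), and 0 after ELS alone, where 1.2% were lower (2.22% in either direction). Doubted libraries lay at both ends of the defeat-alone value. The summed list was highest among controls in standard control 4 (54760) and lowest in standard defeat among its group in library 4 (21400). Its count without the doubted libraries is not given here. For microglia the medians were 0.01, 0.01 and 0.16, for endothelial cells 0.03, -0.04 and 0.15, and for meningeal cells -0.33, -0.02 and 0.42.

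Against the groups that had met 1 stress, 0 genes passed the adjusted threshold in limma for ELS defeat minus standard defeat (1182 unadjusted, 8.44%) and 0 for ELS defeat minus ELS control (2337 unadjusted, 16.7%, smallest adjusted p 0.109). Without the 3 doubted libraries ELS defeat minus standard defeat gave 0 genes, with 1648 unadjusted (11.8%). Ddit4 was at -0.25 against standard defeat and -0.15 against ELS control, Dusp1 at -0.39 and -0.75, and Fcgrt at 0.36 and 0.42.

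**Figure D5:**
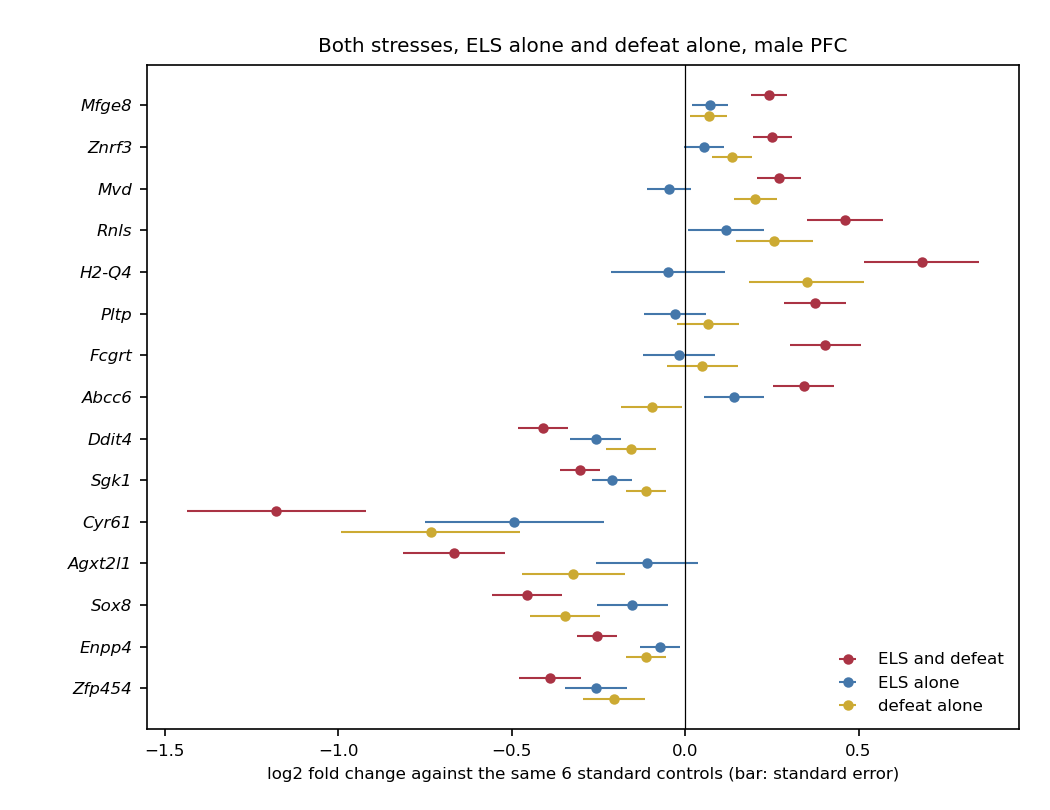
Log2 fold change with its standard error for the 15 genes named by p after both stresses (red), ELS alone (blue) and defeat alone (yellow), each against the same 6 standard controls. Ddit4, Sgk1 and Cyr61 are farther from 0 after both stresses than after either, while Fcgrt and Pltp lie near 0 after each single stress. The genes were named by their p after both stresses, which favours larger values there.

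Hippocampus (HIP) libraries of the same design, 6 per group, were used to ask whether the PFC values differed by region; the labels do not tie a HIP library to a PFC library, and the fit treated them as separate. Ddit4 was at -0.34 ± 0.10 in HIP, a region difference of -0.07 (limma unadjusted p = 0.646), and Agxt2l1 at -0.55 ± 0.15 (difference -0.11, limma unadjusted p = 0.596). Cyr61 was at 0.04 ± 0.24 in HIP (difference -1.22, limma unadjusted p = 0.000698, adjusted p = 0.999), Btg2 at -0.03 ± 0.22 (difference -1.02, limma unadjusted p = 0.0025) and Dusp1 at -0.26 ± 0.21 (difference -0.81, limma unadjusted p = 0.00895). No gene of 14000 passed the adjusted threshold for a region difference in limma, and 473 (3.38%) had an unadjusted p under 0.05. The genes set against HIP were named by their p in PFC, so that choice favours larger values in PFC than in HIP. It also favours a small unadjusted p for the difference. Hbb-b2 was at 1.12 ± 0.48 in HIP, beside 1.55 ± 0.54 in PFC.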

How the data were processed

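RNA from PFC or HIP punches of individual mice was sequenced with an unstranded poly-A kit, per the labels' protocols, so antisense overlaps cannot be told apart. The submitters' processing notes name HISAT, HTSeq and mm10. The authors deposited 1 table of normalised read values per gene (signal units, not raw counts) for 32421 genes; for the scaling factors, the tool was not given in the sources used here. In the male columns, 100% of positive values were whole multiples of the value of 1 read (tolerance 0.001), so reads were recovered for edgeR 4.0.16 and DESeq2 1.42.0. Because the values are normalised, the main test was limma 3.58.1 (trend, robust; R 4.3.3) on log2(value + 1), over all 24 male PFC libraries and the 14000 genes of highest mean, with Benjamini-Hochberg adjustment over all genes. Fold changes on this scale understate those of low genes. The scripts were tested on simulated data. Symbols matched 27164 genes, and 8 list members matched by an older symbol. No 2 libraries of a group were alike: over 60 pairs the lowest chi-square per gene was 3.24.

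Since fewer than 5 genes passed, the genes named by p are the 8 higher and 8 lower of smallest p with a mean of at least 50 normalised reads over the 12 libraries, leaving out predicted genes, and up to 4 members of smallest p of each of the 32 lists (17 processes, 15 cell types); other members are named as examples after their values were seen. Of the genes the rule names, 1 lower gene and 1 list member are not reported here. Members and lists were chosen with earlier results of these data known. Alternatives changed the filter, pseudocount, scaling, test, libraries, 2 surrogate variables (sva 3.50.0) and a replicate block. Promoters are from RefSeq (GRCm38.p6). The 3 doubted libraries are standard controls 1 and 4 and standard defeat 4.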

Additional observations from a re-analysis of the deposited data

Results flagged for a closer look

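In 30 of 336 groups of 6 values examined, 1 library stood apart from the other 5: its gap to the nearest value, divided by the range of the group, was above Dixon's 95% critical value for 6 samples. Chance flags about 1 in 20 groups, and genes of 1 list share libraries, so these are not independent. Each value here is that gap share.

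ELS defeat 5 stood high for the mean of the immediate early genes (0.874) and of the delayed activity-regulated genes (0.82), for the striatal projection neuron list (0.758) and for its member Pde10a (0.761). Leaving it out placed 15 of 19 immediate early genes lower at an unadjusted p under 0.05 in limma, beside 14 with it. ELS defeat 6, the library richest in blood genes, stood high for the glutamate receptor subunit Grin2c (0.7), the astrocyte receptor Fgfr3 (0.659), the pericyte receptor Pdgfrb (0.71), the matrix gene Bcan (0.76) and the perineuronal net list (0.682). ELS defeat 2, which had the lowest myelin sum, stood high for Btg2 (0.693) and the interferon gene Oasl2 (0.759), and low for Enpp4 (0.627) and Th, the dopamine synthesis enzyme (0.753). ELS defeat 3 stood low for Gadd45b (0.749) and Col1a1 (0.637) and high for the histone methyltransferase gene Kmt2c (0.652).

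Among the controls, standard control 5, rich in myelin genes, stood high for the dopamine neuron list (0.654), the monoamine transporter Slc18a2 (0.645) and the interneuron gene Adarb2 (0.683). It stood low for Errfi1 (0.642), the mineralocorticoid receptor Nr3c2 (0.67), the chemokine Cxcl12 (0.643) and the co-chaperone Dnaja1 (0.672). Standard control 4 stood high for the striatal list (0.704), the neurotrophin list (0.646), Hsd11b1, which regenerates active glucocorticoid (0.639), Hapln1 (0.664) and the astrocyte enzyme Aldh1l1 (0.697). Sox8 was low in standard control 6 (0.631) and Csf1r was low in standard control 1 (0.768).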

How the results depend on the processing

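No gene passed in the main comparison with no filter, a mean filter of 50, a pseudocount of 0.5, quantile or TMM scaling, edgeR, or without the 3 doubted libraries. DESeq2 gave 16 genes, 2 surrogate variables 4, and a fit of only the 2 groups 2. Leaving out 1 library gave 0 to 1 gene, the 1 being Sgk1 without standard control 3. ELS defeat minus standard defeat gave 4 with DESeq2. ELS defeat minus ELS control gave 78 with DESeq2, 12 with 2 surrogate variables and 0 to 35 leaving out 1 library, 35 without ELS control 1. The cause was not tested. Directions reversed for Ttr (-0.145 with edgeR, -0.116 with DESeq2, -0.0792 to 1.00 leaving out 1 library), Gad1 (0.024 without the doubted libraries, -0.0779 to 0.0018 leaving out 1), Pde10a (0.0108 without the doubted libraries) and Hsd11b1 (-0.0144 to 0.172 leaving out 1). Same-numbered ELS defeat and standard control libraries gave mixed correlations, from -0.276 to 0.536 over 6 pairs (median 0.0161), 3 of them over 0.1. Differently numbered pairs of different groups ran from -0.49 to 0.523 (median -0.00738). Of the 24 libraries, 6 were closest to their own number. The replicate block gave 0 genes, with 1215 at an unadjusted p under 0.05. With 6 mice per group in 1 cohort, and myelin, blood and striatal markers that differ between libraries, the spread between mice limits small differences in cell type lists; depth was similar across libraries, at 27.9 to 36.0 M reads.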
